A study of Mus musculus with 2 samples.

Results

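Transcript levels of 10 genes were followed in hepatocytes with and without an activated form of ezrin. The genes are Ccn1, Ccn2, Amotl2, Axl, Crim1, Myof, Fjx1, Dock5, Nt5e and F3, which are widely used as transcriptional targets of YAP. They were chosen by symbol: every probe set annotated to a single gene with one of these symbols was kept, which gave 22 probe sets for 10 of the 18193 genes with a probe set of their own on the array. All 10 belong to a published signature of 22 YAP and TAZ target genes.

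YAP and its paralog TAZ are transcriptional coactivators that carry no DNA-binding domain and bind DNA through the TEAD transcription factors. The Hippo kinases phosphorylate YAP and TAZ and hold them in the cytoplasm, and changes in cell shape, tension and the actin cortex also act on them. In the adult liver the pathway is known for its control of organ size and of hepatocyte identity, and CCN1 and CCN2 are the target genes most often read out.

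RNA came from male FVB mice aged 6 to 8 weeks (FVB/N in the series description) fed chow. All mice received, by hydrodynamic tail vein injection, 10 µg of PT3EF5α EzrinT567D and 0.8 µg of pCMV/SB in 2 ml of saline, which drives plasmid DNA into hepatocytes, where the Sleeping Beauty transposase can insert it into the genome. In EzrinT567D an acidic residue stands in for the threonine that is phosphorylated when ezrin, a linker between plasma membrane and actin, is active. At 1 week hepatocytes were freed with collagenase and sorted on GFP into EzrinT567D negative (GFP-) and EzrinT567D positive (GFP+) cells. Both groups thus carry the injection, the digestion and the sort, and no uninjected or empty-vector sample was analysed here. One array was hybridised for each group, an Affymetrix Mouse Genome 430 2.0 array, so every difference below compares 2 arrays with no replicate error and no test. How many mice stand behind each array is not given in the sources used here. The description fields of the labels contradict the other fields, giving 2 months for both samples and fast food in place of chow for the positive one, so a diet difference and the sort cannot be told apart.

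Signals are MAS5 intensities, and each array had a trimmed mean of 500.0. Probe sets for smell, taste and pheromone receptors, 85 in all, served as background, since hepatocytes do not use these genes, and their 95th percentile was taken as each array's floor, a signal of 275.2 (negative) and 334.02 (positive). A probe set below both floors is called dim, and no fold is given for it. One above the floor in a single array has only a bound, with the dim signal raised to its floor. Hepatocyte markers were bright, and all 5 (Alb, Apoa1, Ttr, Cps1, Hnf4a) had log2 ratios (positive over negative) between -0.39 and -0.01 by their brightest probe sets. Other Hnf4a probe sets differed, with -0.09 for 1427000_at, 0.12 for 1421983_s_at and 0.62 for 1450447_at. The ratio of 3′ to 5′ signal of Actb, a sign of RNA integrity, was 0.970 in negative and 0.864 in positive hepatocytes, and that of Gapdh was 3.46 and 3.13.

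Most of the 10 genes were at or below the limit of what these arrays detect. By its brightest probe set (the highest mean of both arrays), Ccn1 and Amotl2 exceeded the floor in both arrays, Nt5e and Fjx1 in the negative array only and Dock5 in the positive array only. The other 5 (Ccn2, Axl, Crim1, Myof and F3) were dim. Of the 22 probe sets 5 exceeded the floor in both arrays, 4 of them for Ccn1, and 13 were dim. In both arrays 2 of the 10 genes exceeded the floor, against 45.3% of the 18193 genes. In at least 1 array 5 of the 10 did, which is close to the 54.2% of all genes. In bulk RNA, fewer cells with a transcript and less of it per cell cannot be told apart.

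**Figure D1:**
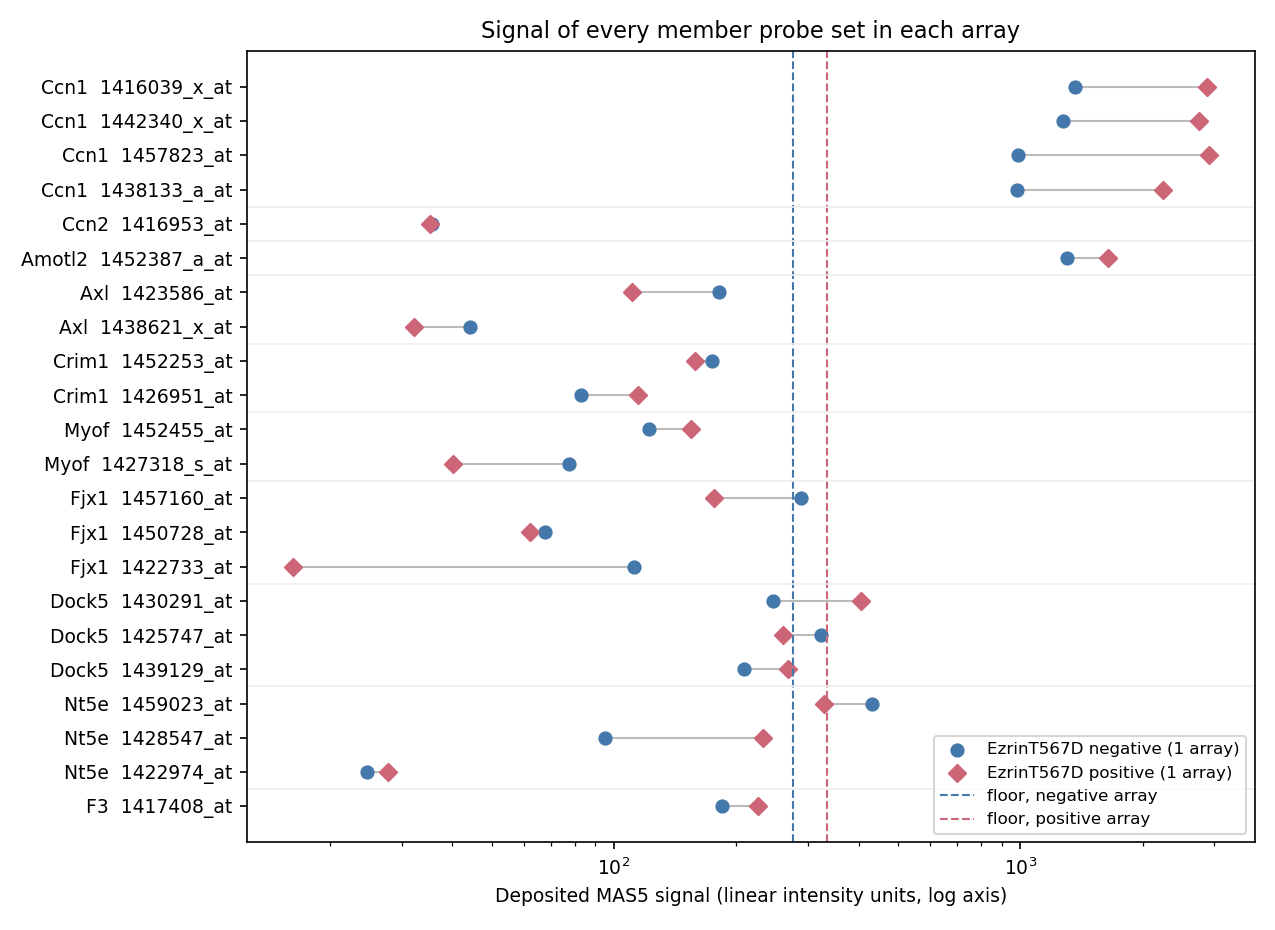
Deposited signal (intensity units, log axis) of each of the 22 probe sets in the EzrinT567D negative array (circles) and the EzrinT567D positive array (diamonds), with the floor of each array as a dashed line. The 4 Ccn1 probe sets lie above both floors with the diamond to the right of the circle, Amotl2 lies above both floors with a small gap, and the remaining 17 lie near or below the floors.

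Of the 10 genes, 5 exceeded a floor in at least 1 array and could be counted. Of these 5, 1 was at least 2-fold higher in positive hepatocytes and 0 were at least 2-fold lower. Across the 9866 genes above the floor in at least 1 array, 113 (1.15%) were at least 2-fold higher and 59 (0.598%) at least 2-fold lower, and after a loess correction of ratio against signal these counts were 84 and 71. The gene past 2-fold was Ccn1.

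Ccn1 (formerly Cyr61) encodes a secreted matricellular protein that binds integrins and heparan sulfate and is induced rapidly by growth factors and mechanical load. Its probe set 1416039_x_at read 1366.8 in negative and 2881.2 in positive hepatocytes, a 2.11-fold higher signal (log2 ratio 1.08). Probe set 1442340_x_at read 1273.7 and 2746.3 (log2 ratio 1.11), and 1438133_a_at read 979.2 and 2243.8 (log2 ratio 1.20). The largest difference was in 1457823_at, which read 987.9 and 2913.3, a 2.95-fold higher signal (log2 ratio 1.56). Of these, 1442340_x_at and 1457823_at were designed from the same source sequence. The lowest of the 4 positive signals exceeded the highest of the 4 negative signals. The mean log2 ratio was 1.24 with an SD of 0.22 over these 4 probe sets, which read the same 2 RNA samples and are not replicates. Across 3131 genes with several probe sets above both floors, the log2 ratios of the 2 brightest differed with an SD of 0.41, called the technical spread here. It compares probe sets on the same 2 arrays. It therefore leaves out animals, sorts and any error that the probe sets of a gene share on an array. Each Ccn1 ratio was larger than that spread, which is not the error of a ratio between the arrays.

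With 1416039_x_at standing for the gene, Ccn1 ranked 61st among 8248 genes above both floors, at percentile 99.3 of the log2 ratios, whose 10th and 90th percentiles were -0.40 and 0.45. This rank depends on the processing: it was 7 without shared or mixed probe sets, 127 with a floor at the median signal and 1447 without a floor. The number of genes ranked differs between these settings and was 18193 without a floor, so the ranks are not on one scale. Among 396 genes with at least 4 probe sets above both floors, Ccn1 alone (0.253%) was at least 2-fold higher in all of them, a count that was chosen after its values were seen. The 4 genes of similar signal with the nearest log2 ratios, among 367 with several concordant probe sets, were Ptpn11 (a tyrosine phosphatase, 1.08), Btg2 (an antiproliferative early response gene, 1.06), Rgs16 (a regulator of G protein signalling, 1.15) and Cldn2 (a tight junction claudin, 0.96). With 2 arrays this likeness says only that the ratios are close.

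**Figure D2:**
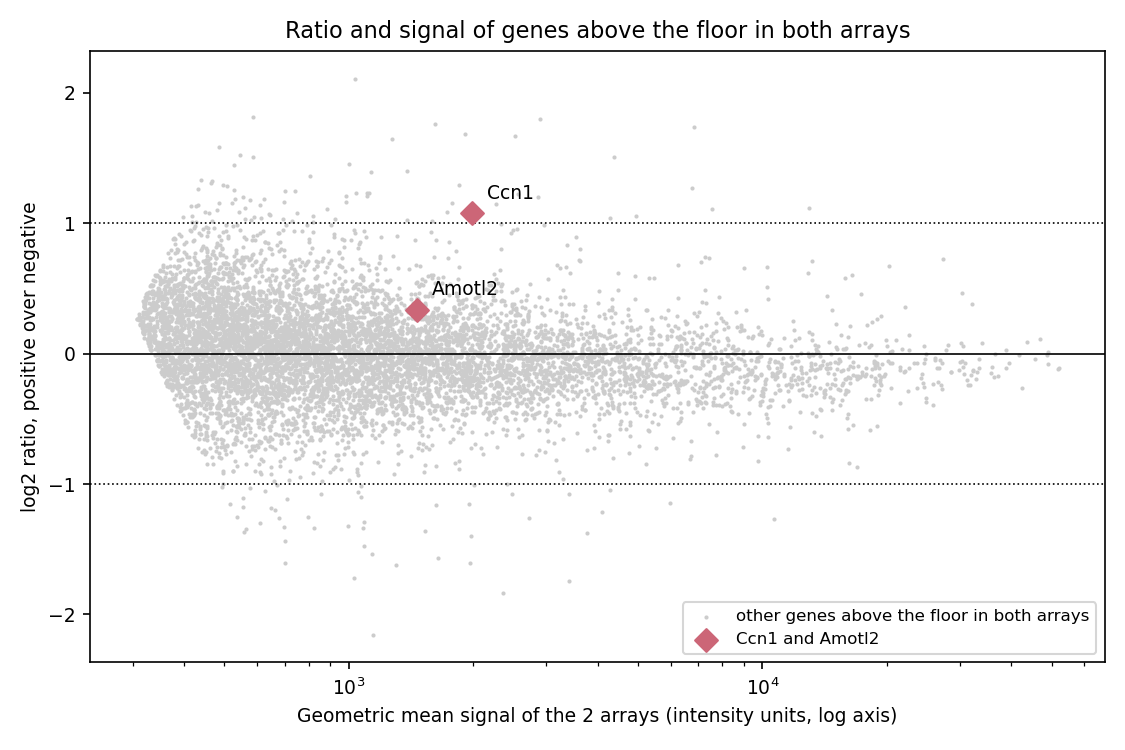
Log2 ratio (positive over negative array) against the geometric mean signal (intensity units, log axis) for the 8248 genes above both floors, one point per gene. Dotted lines mark 2-fold. Ccn1 (1.08) lies above the upper line and Amotl2 (0.34) within the cloud.

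Ccn2 (formerly Ctgf), the close relative of Ccn1 and an equally common YAP readout, was not detected. Its only probe set, 1416953_at, read 35.7 in negative and 35.2 in positive hepatocytes, which is 13.0% and 10.5% of the floors. Nothing can be said from it on whether Ccn2 differed. The remaining CCN genes, Ccn3 to Ccn6, were dim as well, so Ccn1 was the single detected member of its family. Of 6 genes for integrin subunits known as CCN1 receptors, Itgav (1339.1 and 1751.1, log2 ratio 0.39), Itgb5 (0.08) and Itgb1 (0.00) were detected, and Itga6, Itgb3 and Itgam were dim. Probe sets differed for Itgb1 (0.00 and 0.74) and in sign for Itgav (0.39, -0.15 and -0.11) and Itgb5 (0.08, -0.50 and -0.59).

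Amotl2 encodes an angiomotin, a junctional scaffold that binds YAP directly and can restrain it, so that its induction by YAP forms a feedback. It has 1 probe set, 1452387_a_at, which read 1299.9 in negative and 1640.5 in positive hepatocytes, a 1.26-fold higher signal (log2 ratio 0.34). That is smaller than the technical spread of 0.41, and it ranked 1341st of the 8248 genes above both floors. Its relative Amotl1 read 482.0 and 604.5 (log2 ratio 0.33). The probe sets of Amot disagreed: 1454890_at read 696.1 and 679.2 (-0.04), and 1425907_s_at read 421.2 and 882.6 (1.07).

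The promoters of the members were searched for the TEAD recognition core GGAATG on either strand, since YAP binds DNA through TEAD factors. RefSeq windows on GRCm38.p6, from 250 bases before to 50 after a transcript start, were available for 7 members, and 4 held the core (Ccn1, Amotl2, Axl and Crim1), against 14.7% of 32851 windows of that length and 11.7% of the 8675 windows of genes above both floors. The whole Ccn1 window is shown because this is the gene with the concordant difference, with the core (CATTCC, the opposite strand of GGAATG) in capitals at -103 to -98 from the start.
Ccn1, chr3:145649936-145650235, minus strand: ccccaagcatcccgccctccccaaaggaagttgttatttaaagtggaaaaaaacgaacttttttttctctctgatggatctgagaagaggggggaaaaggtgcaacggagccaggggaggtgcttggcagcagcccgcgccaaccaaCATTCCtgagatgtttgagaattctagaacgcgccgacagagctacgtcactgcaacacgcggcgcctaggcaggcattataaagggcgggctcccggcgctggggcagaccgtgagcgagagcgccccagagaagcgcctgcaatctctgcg

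The 40 bases around each core are shown side by side because they hold detected and undetected members. Capitals mark the core, and each line reads 5′ to 3′ in the direction of its gene.
Ccn1, chr3:145650066-145650105, minus strand: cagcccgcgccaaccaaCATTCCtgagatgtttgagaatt
Amotl2, chr9:102717722-102717761, plus strand: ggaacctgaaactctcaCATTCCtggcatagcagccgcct
Axl, chr7:25788944-25788983, minus strand: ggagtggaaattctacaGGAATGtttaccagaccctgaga
Crim1, chr17:78200152-78200191, plus strand: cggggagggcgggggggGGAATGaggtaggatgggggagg

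The Ccn1, Amotl2 and Axl cores lie within the same 9 bases, ACATTCCTG (CAGGAATGT in Axl), which occur in 168 of the 32851 windows (0.511%). The run was found by comparing these windows with each other. Ccn1 and Amotl2 were the 2 members above the floor in both arrays, whereas Axl and Crim1, with the same core, were dim. The windows of Myof, Nt5e and F3 held no GGAATG on either strand. The AP-1 motif TGANTCA was found only in the F3 window, as TGAATCA at -146 to -140 and TGAGTCA at -135 to -129, and in 7.81% of all windows. No member window held a CArG box, the motif of SRF, which 1.63% of all windows held. No member window held both motifs, which says little with AP-1 in only 1 of the 7. The share of all windows with both was not computed. A match is not evidence of binding, and these windows leave out enhancers, where much of YAP and TEAD binding is known to lie.

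Dock5, an activator of the GTPase Rac, was read by probe sets near or below the floor. Probe set 1430291_at read 245.8 in the negative, below its floor, and 404.4 in the positive array, at least 1.47-fold higher. Probe set 1425747_at read 323.6 in the negative and 261.0, below its floor, in the positive array, so that no bound and no direction follow. The third, 1439129_at, was dim (208.8 and 267.6). The higher reading in positive hepatocytes thus rests on 1 of the 3 probe sets.

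Nt5e encodes CD73, the ectoenzyme that makes adenosine from AMP. Probe set 1459023_at read 430.6 in the negative and 328.2, just below its floor, in the positive array, at least 1.29-fold lower, a bound smaller than the technical spread. This bound depends on the floor: its log2 value was -0.37, and -0.02 with floors at the 99th percentile. The other 2 were dim, at 95 and 232.7 for 1428547_at and at 24.6 and 27.8 for 1422974_at. Entpd1 (CD39), the enzyme that supplies AMP to CD73, read 347.3 and 986.0, a 2.84-fold higher signal in 1423326_at, while its other 2 probe sets were dim.

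Fjx1 is the mammalian counterpart of Drosophila four-jointed, a Golgi kinase that acts on the atypical cadherins Fat and Dachsous. Probe set 1457160_at read 288.6 in the negative array, just above the floor, and 176.0 in the positive array, below it. Because the floor of the positive array is the higher, no bound on the fold follows. The other 2 probe sets were dim, with 112.2 and 16.2 for 1422733_at and 67.8 and 62.2 for 1450728_at. All 3 read lower in the positive array, but only 1 of the 6 signals exceeded a floor.

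The remaining members act at the cell membrane and were dim in all their probe sets. Axl, a receptor tyrosine kinase for the vitamin K-dependent ligand GAS6, read 181.7 and 110.6 in 1423586_at and 44.3 and 32.2 in 1438621_x_at. Crim1, a transmembrane protein that binds bone morphogenetic proteins, read 174.6 and 158.1 in 1452253_at and 82.7 and 114.5 in 1426951_at. Myof, a ferlin of membrane repair and fusion, read 122.1 and 154.3 in 1452455_at and 77.5 and 40.1 in 1427318_s_at. F3, tissue factor, which starts coagulation with factor VII, read 184.5 and 225.7 in 1417408_at. Over all members, 6 of the 13 dim probe sets read higher and 7 lower in the positive array.

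Partners of Axl, F3, Myof and Dock5 were followed as well. For the receptor family of Axl, the ligand genes Gas6 (751.1 and 540.7, log2 ratio -0.47) and Pros1 (1809.3 and 2388.5, 0.40) exceeded both floors. The related receptors Tyro3 (at least 1.49-fold higher) and Mertk (at least 1.27-fold higher) exceeded only that of the positive array. For F3, F7 (958.7 and 634.7, -0.60) and F10 (11480.3 and 10161.2, -0.18) were bright, as hepatocytes secrete both, and the inhibitor Tfpi was dim. Dysf, a relative of Myof, read 453.1 and 463.4 (0.03). For Dock5, Elmo1 (319.9 and 459.5, 0.52) and Elmo3 (0.31), subunits that pair with DOCK proteins, were detected, as was Dock1 in the negative array alone (at least 1.56-fold lower).

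The other 12 genes of the signature did not share a direction. Above the floor in at least 1 array were 6, of which 3 were higher, 3 lower and 0 past 2-fold. Gadd45a, a growth arrest gene, read 1795.9 and 2212.4 (log2 ratio 0.30), and the kinase gene Nuak2 read 892.2 and 1180.5 (0.40). Igfbp3 was at least 1.31-fold higher. Lats2, a Hippo kinase that is also a YAP target, read 991.1 and 823.2 (-0.27), but its other probe sets above both floors had ratios of 0.23 and 0.34. Arhgef17, an activator of RhoA, read 549.6 and 259.6, at least 1.65-fold lower, and Ccdc80 was at least 1.26-fold lower. Ankrd1, Asap1, Foxf2, Ptpn14, Rbms3 and Tgfb2 were dim. The median log2 ratio was 0.02 over these 6, 0.34 over the 5 members above a floor and 0.00 over all 9866 genes, medians of few genes that rest on bounds in part.

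Genes of the Hippo cascade, from kinases to TEAD factors, counted 11 detected genes, 4 of them higher, 7 lower and 0 past 2-fold (median -0.12). Yap1 read 2512.9 and 2363.3 (-0.09). The lowest ratios were those of Stk4 (-0.78, but -0.45 in 1434159_at) and Tead1 (-0.72), whose other probe set was dim. A further Stk4 probe set, 1421107_at, was dim as well (244.7 and 318.5). The largest positive ratio, for Nf2 (at least 1.82-fold higher in 1450382_at), was not shared by 1451829_a_at (0.01) or 1421820_a_at (at least 1.17-fold lower).

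Ccn1 is also an immediate early gene, a class induced within minutes of a stimulus, cell dissociation included. Of 24 such genes 18 exceeded a floor, 16 of them higher, 1 lower and 5 at least 2-fold higher, with a median log2 ratio of 0.43. Among all 9866 genes above a floor 1.15% were at least 2-fold higher, and the median log2 ratio of those 9866 was 0.00. The 4 highest were Maff (851.8 and 2252.6, log2 ratio 1.40), Klf6 (1.24), Ier2 (1.23) and Atf3 (1674.5 and 3912.9, 1.22). Btg2 (1.06) was the other gene past 2-fold, followed by Nr4a1 (0.84). Egr1 (0.68), Fos (0.26), Jun (0.34, and 0.60 in 1448694_at) and Junb (0.12) were higher by less, and Klf2 (-0.48) was lower. Of 15 targets of SRF and its actin-regulated cofactor MRTF, 8 were detected, with 6 higher, 2 lower and 0 past 2-fold (median 0.19). Without shared or mixed probe sets 4 were detected, with 2 higher and 2 lower (median -0.01). Srf itself was at 0.40, Tagln2 at 0.35 and Acta2 at 0.31, each in a probe set that can share or mix targets. Vcl was at -0.26, though 0.15 in its probe set 1416157_at. The part of an early response to isolation in the Ccn1 difference was not tested.

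**Figure D3:**
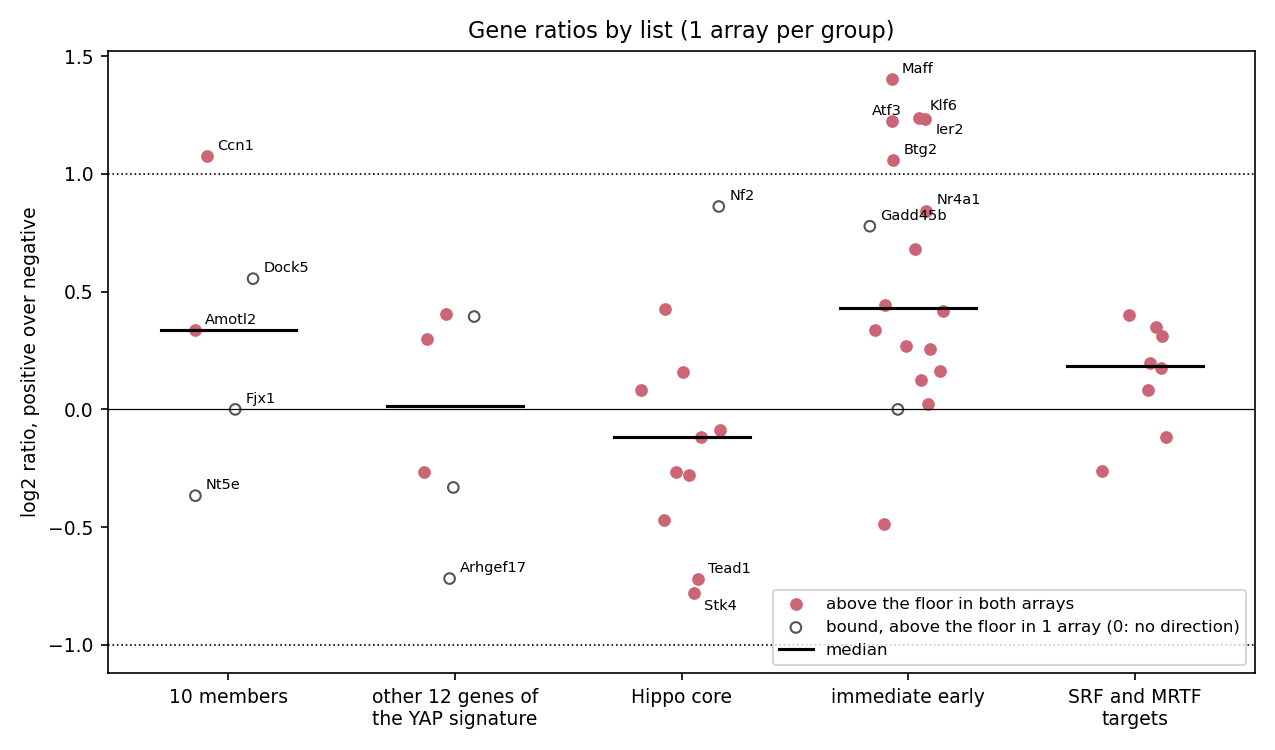
Log2 ratio (positive over negative array) for each gene above a floor, by list, with filled points for genes above both floors, open points for bounds and a bar at each list's median. Ccn1 sits with 5 immediate early genes above the 2-fold line, and no other member, signature gene, Hippo gene or SRF target passes it.

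Markers of other liver cells were followed because Ccn1, Axl, Nt5e and Crim1 are known from endothelial and stellate cells as well. Of 8 sinusoidal endothelial markers 6 exceeded a floor, with summed signals of 3526.1 in negative and 3945.6 in positive hepatocytes and the largest ratio for Cdh5 (283.0 and 507.0, log2 ratio 0.84). The negative Cdh5 signal was just above the floor, and its other probe set was dim (217.4 and 216.1). Of 9 stellate cell and fibroblast markers 6 exceeded a floor, with sums of 3374.0 and 2943.5 and the largest ratio for Rgs5 (-0.79, but -0.20 in 1417466_at). Of 7 Kupffer cell markers 3 did, 1 higher and 2 lower, and the sums over all 7 were 1717.6 and 1734.6. Each sum covers every marker of its list with a probe set, dim ones included, and so holds background in part. All 5 cholangiocyte markers with a probe set were dim (498.5 and 692.9), among them Sox9 and Krt19, as were all lymphocyte (558.9 and 411.3), blood (489.4 and 301.0) and mesothelial markers (245.6 and 292.2). No marker had a signal of 0. The ratio of summed signals was 1.12 for the endothelial, 0.872 for the stellate and 1.01 for the Kupffer list, and the part of these cells in the Ccn1 difference was not tested.

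Ccn1 and Amotl2 were recomputed under 9 other ways of processing the signals. The log2 ratio of Ccn1 ran from 1.04 with a pseudocount of 64 to 1.56 where probe sets that can share or mix targets were left out, and that of Amotl2 from 0.32 to 0.35 in the 8 that kept its probe set. Ccn1 stayed past 2-fold in all 9. The alternatives that change only the floor could not move it, because its signals exceed each of those floors, and its ratio stayed at 1.08 there.

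**Figure D4:**
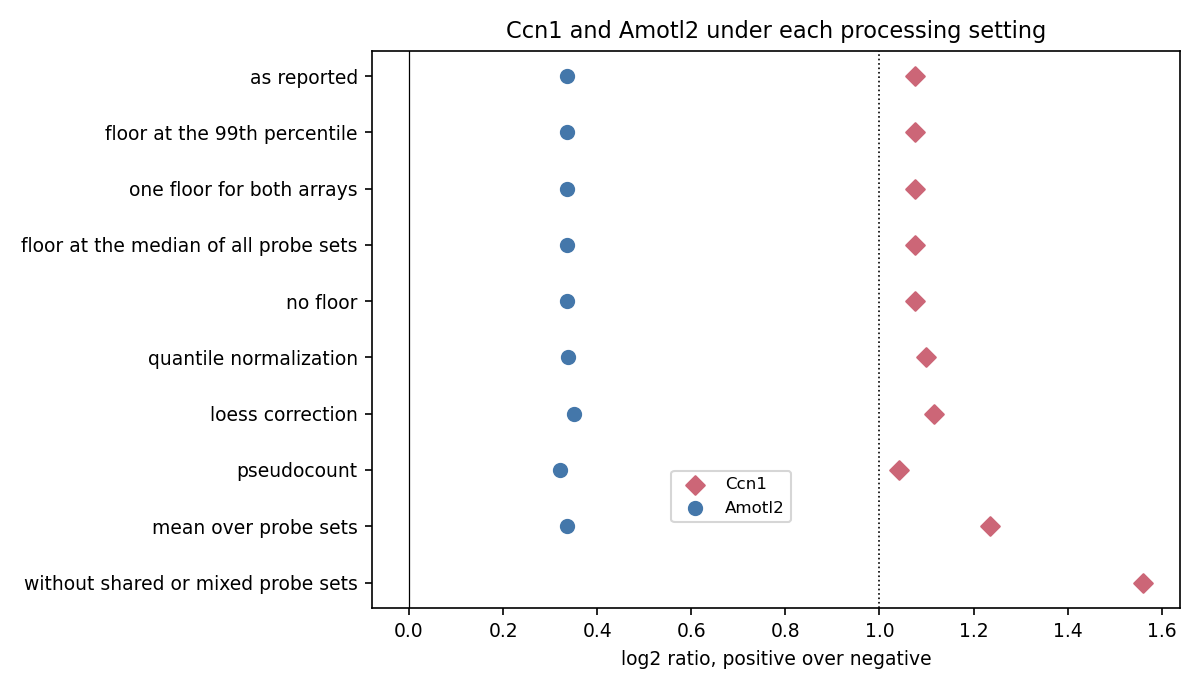
Log2 ratio (positive over negative array) for Ccn1 (diamonds) and Amotl2 (circles) as reported and under 9 alternatives, with a dotted line at 2-fold. All Ccn1 values lie to the right of the line, and all Amotl2 values lie between 0.32 and 0.35. Settings that change only the floor leave both genes where they were.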

How the data were processed

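RNA of 1 EzrinT567D negative and 1 EzrinT567D positive sample was measured, and groups came from the group label. The authors deposited linear probe set intensities, made with MAS5 per the submitters' processing notes, with no version or settings given in the sources used here. Both arrays had a 2% trimmed mean of 500.0, and such scaling hides a shift of all transcripts together.

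Of 45101 probe sets, 34945 carried 1 gene symbol and 932 several, 9160 had none and 64 were controls. Only the first were used. All 10 member symbols matched the RefSeq table by Entrez ID. The probe set with the highest mean of both arrays stood for a gene. A bound pointing away from the measured side was given no direction (log2 ratio 0). With 1 array per group no test was made, and the number of arrays limits the precision. Ratios were tested on simulated data, with changes well past 2-fold put into bright probe sets only. Recovery near the floor or near 2-fold was not tested. No build is named for the arrays, so coordinates are those of the RefSeq promoter table.

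Members, lists, floor and bound rules were chosen with earlier results of these data known. The text names every member and probe set, detected signature genes, up to 4 genes with large ratios per other list and the 4 genes nearest to Ccn1. Further genes were picked after their values were seen. Alternatives changed the floor, normalization, pseudocount or probe set rule. Python 3.11.15, pandas 2.3.3, statsmodels 0.14.6 (loess span 0.3) and matplotlib 3.10.9 were used.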

Additional observations from a re-analysis of the deposited data

How the results depend on the processing

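The count of members at least 2-fold higher (1) and lower (0) was the same under all 9 alternatives. Ccn1 moved by more than the technical spread in 1 of them, to 1.56, where probe sets that can share or mix targets were left out. This leaves 1457823_at alone for Ccn1 and no probe set for Amotl2, so the median over members above both floors, 0.71 under the settings used throughout, was also 1.56. Without a floor that median was 0.14 over all 10 members. For the other signature genes above both floors the median was 0.30 and became -0.27 with a floor at the median signal of each array, as more genes entered. Genes at least 2-fold higher and lower, 113 and 59 as reported, were 73 and 46 with the pseudocount, 239 and 155 with the median floor and 1629 and 1655 without a floor. The rank of Ccn1 among genes above both floors, 61 as reported, ran from 7 to 127 under the 8 alternatives with a floor (27 with the mean over probe sets). Without a floor it was 1447 among 18193 genes. With the 99th percentile floor, 3 members exceeded a floor in at least 1 array, against 5 as reported: Fjx1 and Dock5 no longer did. No paired analysis was possible because each group holds 1 array. Depth does not apply to arrays, and signal over background limits 8 of the 10 members.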

Other observations

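Below the floor, large ratios were common. Of the 85 receptor probe sets that set the floor, 29 (34.1%) differed at least 2-fold between the arrays, 16 higher and 13 lower in the positive array, and over all 18868 dim probe sets the share was 33.9%. Among the 13 dim member probe sets 2 did, Fjx1 1422733_at (112.2 and 16.2) and Nt5e 1428547_at (95 and 232.7). Ccn4, another CCN gene, read 7.6 and 104.5 in 1448593_at and 24.4 and 135.9 in 1448594_at, all below the floors.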
